A study of Mus musculus with 12 samples.

Results

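The 10 genes described here encode the core and accessory subunits of Polycomb repressive complex 2 (PRC2): Ezh2, Ezh1, Eed, Suz12, Rbbp4, Rbbp7, Jarid2, Aebp2, Phf19 and Mtf2. They were chosen by symbol from the 16288 genes listed in the expression tables, all 10 were found in all 12 libraries, and all 10 passed the low-count filter that kept 12545 genes. RNA was sequenced from C2C12, an immortalised mouse myoblast line, at 3 stages and under 2 treatments, with 2 libraries (A and B) in each of the 6 groups. GM cells were proliferating in medium with 10% fetal bovine serum. DM 24h and DM 48h cells had spent 24 h or 48 h in differentiation medium, with 2% horse serum and 2 ug/ml insulin, entered from near confluence. Cells received DMSO, the vehicle, or 50 uM PFI-3, a ligand of the bromodomains in SMARCA2 (BRM) and SMARCA4 (BRG1), the ATPases of SWI/SNF remodelling complexes, and in PBRM1. Proliferating cells had 12 h of either agent before harvest, and DM cells also had a 12 h pretreatment and then a renewal every 24 h. The submitters call A and B biological duplicates of each treatment and time. All libraries come from 1 cell line, so p-values measure the spread between these libraries and not between animals.

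PRC2 places methyl groups on a lysine of histone H3, a mark found at silent developmental genes. The catalytic subunit is EZH2 or its paralog EZH1, and it works only in a complex with EED, SUZ12 and a histone-binding WD-repeat protein, RBBP4 or RBBP7. EZH2 is the form typical of dividing cells, while EZH1 is also found in cells that have left the cell cycle, and accessory proteins such as JARID2, AEBP2, PHF19 and MTF2 help bring the complex to chromatin. In muscle precursors EZH2 is known to occupy silent muscle genes and to decline as the cells differentiate.

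Libraries held 12576374 to 13658352 expected counts, and the members' counts ran from 88 (Phf19, DM 48h DMSO library B) to 5055 (Rbbp4, DM 48h DMSO library B). The labelled cell type was checked against its markers: Myod1, the myogenic master regulator, had 1548 to 5688 counts per library, and the intermediate filament gene Des had 3744 to 26132. Of 10 markers of endothelial, blood, fat, neural and epithelial cells, Adgre1, Plin1 and Snap25 were at 0 in every library and the highest count was 15, for Cdh5. The summed level of those 10 was 0.0785 to 0.709 CPM (counts scaled to library size) in 10 libraries and 1.25 to 1.4 CPM in the 2 of DM 48h DMSO. Exons of 6 members (Ezh2, Eed, Suz12, Rbbp4, Rbbp7 and Mtf2) overlap exons of a gene on the other strand, by 92 bases for Ezh2 and 796 for Rbbp4. Whether strand was used in counting is not given in the sources used here, so reads from those stretches cannot be told apart.

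The sequence before the start sites was read because several of the members moved together with the stage. RefSeq windows of 250 bases upstream (GRCm38) were found for all 10 members, 14 windows in all. Searched on both strands were E2F words (TTTCCCGC, TTTCGCGC, TTTGCCGC and TTTGGCGC), the CHR word TTTGAA known from promoters of cell cycle genes, and the E-box CANNTG that myogenic factors of the MyoD family bind. An E2F word was in the windows of 2 members, Suz12 and Phf19, against 2.157% of all 27025 genes with such windows. A CHR word was in 4 members (Eed, Suz12, Mtf2 and Aebp2), against 18.257% of genes. For Mtf2 it was only in window 2 of 2 and for Aebp2 only in window 3 of 3, both inside the gene. A gene counted if any of its windows held the word, so genes with more windows had more room for a match. Of single windows 15.987% held it. An E-box was in 5 members (Ezh1, Eed, Jarid2, Rbbp4 and Mtf2), against 69.302% of genes, and for Jarid2 and Mtf2 only in window 2. The 1 Ezh2 window held none of these words. It covered chr6:47595031-47595280, almost all of it inside the annotated gene, which ends at 47595270. The sequence farther upstream of that outer end was therefore not searched. Stretches of 4 members, the 2 with an E2F word and 2 others with a pair of like words, are shown 5′ to 3′ on the gene's strand, with matched words in capitals: chr11:101226504-101226551 (minus strand) for Ezh1 with 2 E-boxes, chr7:89981143-89981184 (minus) for Eed with 2 CHR words, chr11:79992876-79992919 (plus) for Suz12 with an E2F and a CHR word, and chr2:34914166-34914195 (minus) for Phf19 with an E2F word. The 1 Phf19 window, chr2:34913977-34914226, lies inside the annotated gene (chr2:34893752-34914353, 7 RefSeq transcripts), so it precedes an inner start site. A match describes the letters and is not evidence of binding.
Ezh1: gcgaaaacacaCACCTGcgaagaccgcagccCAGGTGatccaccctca
Eed: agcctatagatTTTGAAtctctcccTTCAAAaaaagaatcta
Suz12: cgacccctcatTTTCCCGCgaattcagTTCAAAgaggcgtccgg
Phf19: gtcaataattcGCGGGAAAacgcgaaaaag

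Levels were compared between genes in FPKM, the deposited values scaled by transcript length and library size. In proliferating DMSO cells the histone-binding subunits were the most abundant, Rbbp7 at 143.7 ± 1.68 FPKM and Rbbp4 at 80.7 ± 4.06 (mean ± SD, n = 2, here and below). Both are shared with other chromatin complexes. Ezh2 followed at 34.2 ± 4.95, then Suz12 at 24.1 ± 1.06 and Aebp2 at 23.8 ± 1.65, whose libraries overlapped. Eed was at 18.3 ± 3.25, Phf19 at 9.22 ± 0.325, Mtf2 at 7.51 ± 0.827, Ezh1 at 4.17 ± 0.113 and Jarid2 lowest at 3.18 ± 0.339. By DM 48h with DMSO the order had changed: Ezh1, at 17.6 ± 0.120 FPKM, stood behind Rbbp4 and Rbbp7 alone, and Ezh2, at 13.4 ± 0.255, stood behind Aebp2 and Suz12 as well. There the libraries of Suz12 and Ezh2 overlapped, as did those of Eed and Jarid2, and Phf19 was lowest at 2.19 ± 0.438.

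**Figure D1:**
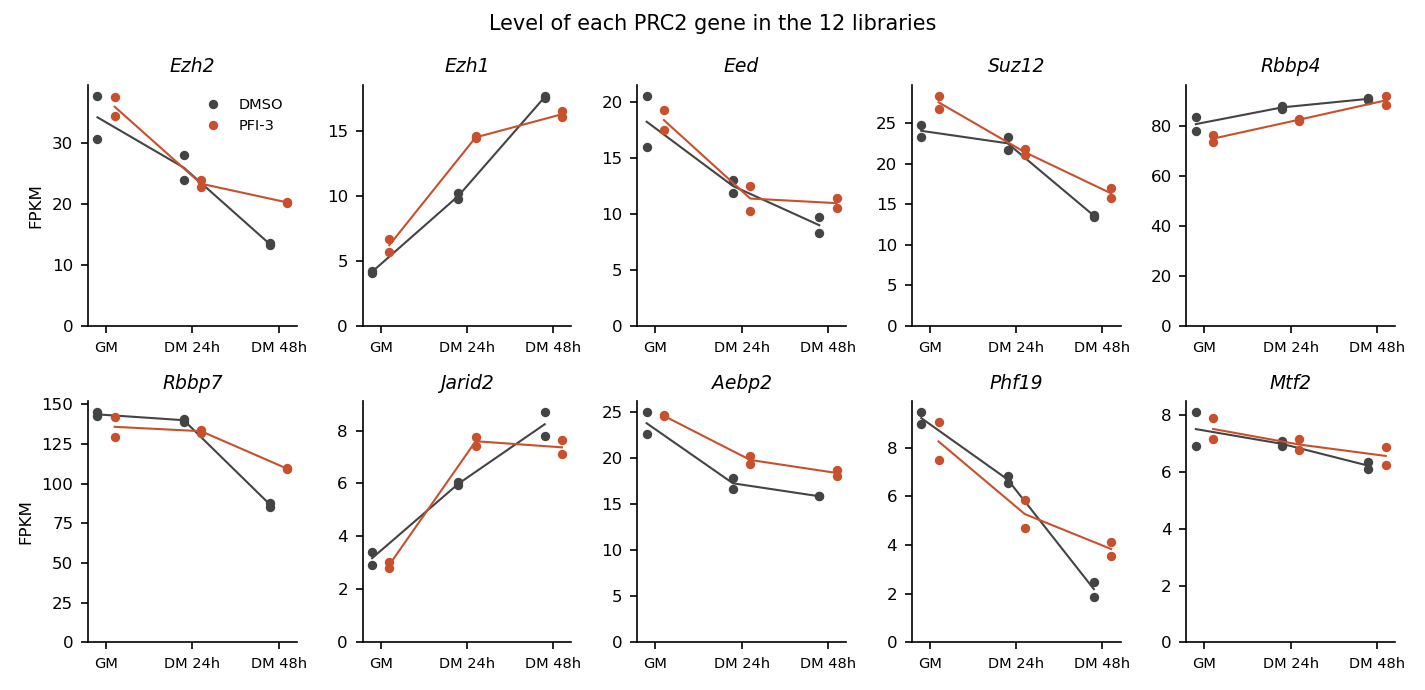
FPKM (vertical axis, from 0) of each of the 10 PRC2 genes at the 3 stages, with 1 point per library and lines through the means of 2 libraries, DMSO in grey and PFI-3 in red. Ezh1 and Jarid2 climb from GM to DM 48h, Ezh2, Eed, Suz12, Phf19 and Aebp2 decline, and the PFI-3 points of Ezh2, Phf19 and Rbbp7 lie above the DMSO points at DM 48h.

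Differentiation under DMSO was described first, from GM to DM 24h and DM 48h. Between GM and DM 48h the 2 catalytic paralogs moved in opposite directions, Ezh1 up 4.26-fold and Ezh2 down 2.54-fold. Of the 10 members, 3 rose (Ezh1, Jarid2 and Rbbp4) and 7 fell (Phf19, Ezh2, Eed, Suz12, Rbbp7, Aebp2 and Mtf2), where 73.1% of all genes tested were called, 37.2% higher and 35.9% lower. Calls are adjusted p-values under 0.05 in edgeR's quasi-likelihood test with Benjamini-Hochberg adjustment over all genes tested, the source of every adjusted p below. The median log2 change was -0.71 over the members and 0.03 over all genes. That all 10 were called is thus read against a transcriptome in which most genes were.

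Ezh2 (NCBI Gene 14056; chr6:47530274-47595270, minus strand) encodes the main methyltransferase of dividing cells. For GM, DM 24h and DM 48h in turn, its DMSO libraries A and B held 37.71 and 30.71, 27.98 and 23.95, and 13.56 and 13.20 FPKM. The groups did not overlap at any step, and most of the decline came in the second day. Its log2 change on the first day was -0.45 (SE 0.11, adjusted p 0.00386) and on the second day -0.89 (SE 0.12, adjusted p 6.05e-05), or -1.35 in all (SE 0.12, adjusted p 5.05e-07). The first of these was no longer called without library B of DM 24h DMSO (adjusted p 0.0529). In bulk RNA a lower level can mean fewer cells that carry the transcript or less of it per cell, and these cannot be told apart here.

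Ezh1 (NCBI Gene 14055; chr11:101191115-101226463, minus strand) encodes the alternative catalytic subunit, and the pair of E-boxes printed above lies 77 and 57 bases before its start site. Over the same 3 stages its DMSO libraries held 4.25 and 4.09, 9.78 and 10.26, and 17.72 and 17.55 FPKM. Each stage lay above the one before with no overlap. The log2 change on the first day was 1.21 (SE 0.09, adjusted p 3.39e-07). The rise went on in the second day, by 0.88 (SE 0.08, adjusted p 2.95e-06), and came to 2.09 in all (SE 0.09, adjusted p 7.1e-10).

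Because the paralogs fill the same place in the complex, their FPKM values were set against each other in each library. In GM with DMSO, Ezh2 exceeded Ezh1 8.87-fold and 7.51-fold in libraries A and B. The ratio was 2.86 and 2.33 by DM 24h and 0.765 and 0.752 by DM 48h, so Ezh1 was then the more abundant transcript. With PFI-3 the ratio over these stages was 5.58 and 6.0, 1.56 and 1.65, and 1.21 and 1.27. By FPKM Ezh2 was thus still above Ezh1 in both PFI-3 libraries of DM 48h. In counts Ezh1 was the higher there, 866 and 839 against 655 and 664, so that order rests on the deposited transcript lengths. Averaged over treatments, the log2 ratio changed by -2.82 between GM and DM 48h, a 7.08-fold shift (exact permutation test within treatment, two-sided, p = 0.0556). That p is the smallest the 36 arrangements allow, so the design cannot pass 0.05. PFI-3 minus DMSO, the log2 ratio differed by -0.50, -0.69 and 0.71 in the 3 stages in turn. Over the 3 stages the differences came to -0.16 on average (exact permutation test within stage, two-sided, p = 0.481, smallest possible 0.00926), and 2 libraries against 2 within a stage cannot reach 0.05.

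**Figure D2:**
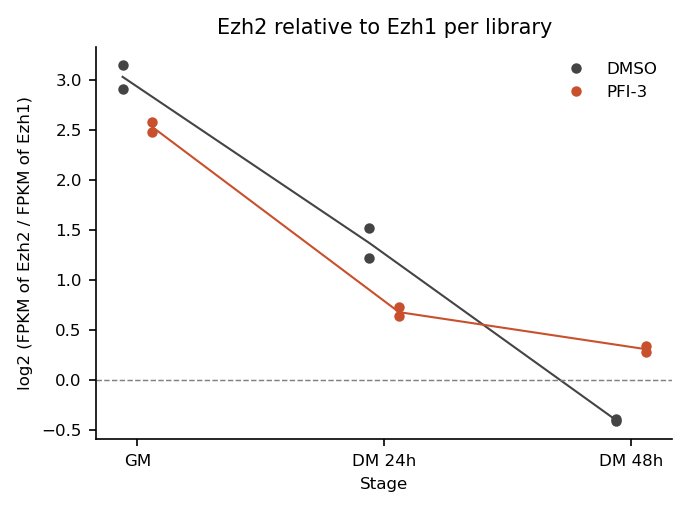
Log2 ratio of the FPKM of Ezh2 to that of Ezh1 (vertical axis) in each of the 12 libraries by stage, with lines through the means of 2 libraries, and a dashed line at 0 where both transcripts have the same FPKM. The DMSO means go from 3.03 to 1.37 and -0.4 across the stages, and the PFI-3 means from 2.53 to 0.68 and 0.31, so that the lines cross between DM 24h and DM 48h.

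The core partners Eed and Suz12 declined as well. Eed, which reads the methyl mark and stimulates the enzyme, held 20.56 and 15.96, 13.09 and 11.93, and 9.70 and 8.31 FPKM over the 3 stages under DMSO. It fell by 0.60 on the log2 scale in the first day (SE 0.15, adjusted p 0.00364) and by 1.01 over both days (SE 0.15, adjusted p 6.3e-05). Suz12, the scaffold of the complex, was at 23.34 and 24.84, then 23.34 and 21.76, then 13.48 and 13.75. Its GM and DM 24h libraries touched and the change of -0.15 was not called (adjusted p 0.0733), while DM 48h lay below both and differed from GM by -0.81 (SE 0.07, adjusted p 4.13e-07). From DM 24h to DM 48h Suz12 fell by 0.66 (SE 0.07, adjusted p 8.4e-06). The step of Eed over that day, -0.41 (SE 0.16, adjusted p 0.0467), was near the threshold and was lost in 10 of 21 alternative fits, among them those without either library of DM 24h DMSO (0.2 and 0.0894), of DM 48h DMSO (0.0651 and 0.265) or of DM 48h PFI-3.

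The 2 WD-repeat paralogs differed. Rbbp7 held 144.88 and 142.51, then 140.86 and 139.19, then 85.59 and 87.99 FPKM. Like Suz12 it fell in the second day, by 0.63 from DM 24h (SE 0.07, adjusted p 8.69e-06), after a change of -0.09 in the first that was not called (adjusted p 0.25). Rbbp4 was at 77.80 and 83.54, then 87.94 and 86.78, then 90.32 and 91.24. Its rise of 0.18 from GM to DM 48h (SE 0.06, adjusted p 0.0107) was small, and was not called in a fit of the 4 libraries compared (adjusted p 0.0771) or without library B of DM 48h DMSO (0.0544).

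Among the accessory genes Jarid2 rose and the others fell. Jarid2, a DNA-binding protein of the Jumonji family that recruits PRC2, held 2.94 and 3.42, 5.94 and 6.04, and 8.68 and 7.79 FPKM over the DMSO stages. These did not overlap, and the log2 change was 0.87 in the first day (SE 0.09, adjusted p 5.9e-06) and 1.40 over both (SE 0.09, adjusted p 2.71e-08). Aebp2, a zinc finger protein found with JARID2 in the same PRC2 subtype, was at 25.00 and 22.66, then 17.90 and 16.70, then 15.87 and 15.91. It fell by 0.54 in the first day (SE 0.07, adjusted p 5.34e-05) and by 0.70 over both (SE 0.07, adjusted p 3.07e-06), so these partners went opposite ways. The transcript length deposited for Aebp2 varied between libraries from 5378 to 5999 bases, which moves its FPKM but not its counts.

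Phf19 and Mtf2 belong to the Polycomb-like family, alternative partners that bind DNA near CpG islands. Phf19 held 9.45 and 8.99, 6.84 and 6.56, and 2.50 and 1.88 FPKM over the DMSO stages. This was the largest decline among the 10 members: the log2 change was -0.51 in the first day (SE 0.14, adjusted p 0.00776) and -2.06 over both (SE 0.16, adjusted p 1.93e-07), a 4.18-fold drop. The DM 24h call was lost without library B of DM 24h DMSO (adjusted p 0.0522). Mtf2 had 6.93 and 8.10, 6.91 and 7.08, and 6.35 and 6.10 FPKM at the same stages. Its change at DM 48h, -0.25 (SE 0.09, adjusted p 0.0262), was lost in 6 of 21 alternative fits, among them DESeq2 (adjusted p 0.128) and those without library B of GM DMSO (0.14) or library A (0.0618) or B (0.119) of DM 48h DMSO.

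At DM 24h 6 of the 10 members had changed from GM under DMSO (2 higher, 4 lower), against 60.6% of all genes (30.6% higher, 30.0% lower). From DM 24h to DM 48h 7 had changed (2 higher, 5 lower), against 48.1% (24.2% and 23.9%). Ezh1 and Jarid2 were the 2 that rose in each step, and Ezh2, Eed and Phf19 fell in each. Suz12 and Rbbp7 fell in the second step and Aebp2 in the first.

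**Figure D3:**
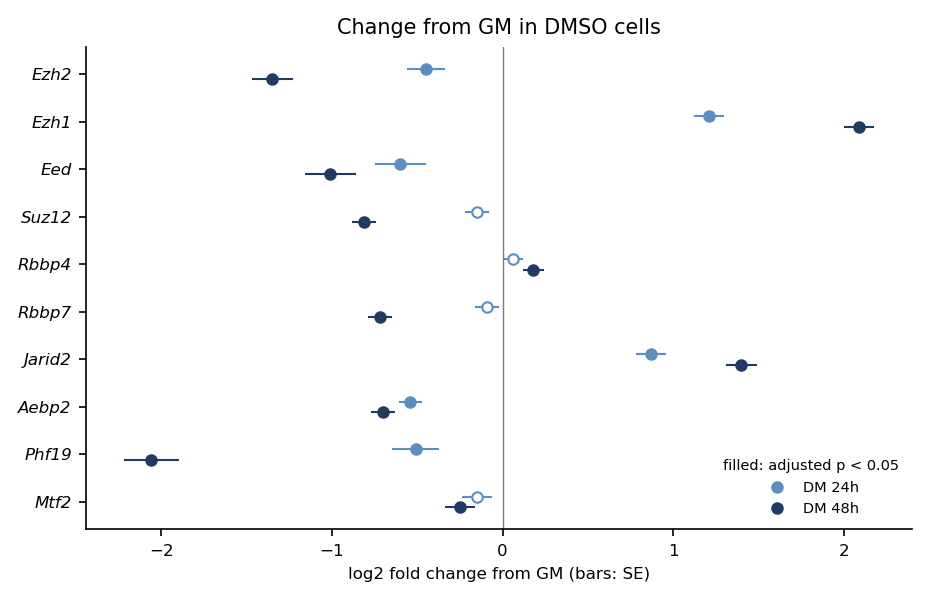
Log2 fold change from GM in DMSO cells (horizontal axis) for each PRC2 gene at DM 24h and DM 48h, with bars of 1 SE and filled points at an adjusted p under 0.05. Ezh1 and Jarid2 lie right of 0 at both times, at 2.09 and 1.40 by DM 48h, and Phf19 and Ezh2 lie farthest left, at -2.06 and -1.35.

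The same stages under PFI-3 gave the course of the members in treated cells. At DM 24h 8 of 10 differed from GM with PFI-3 (3 higher, 5 lower), against 60.3% of all genes (32.1% higher, 28.2% lower). By DM 48h 9 did (3 higher, 6 lower), against 67.2% (34.4% and 32.9%). The DM 24h count includes Rbbp4 as higher, by 0.14 (SE 0.06, adjusted p 0.0476). That call was lost in 15 of 21 alternative fits, DESeq2 (adjusted p 0.182) among them. From DM 24h to DM 48h 2 of 10 changed, Suz12 by -0.37 (SE 0.07, adjusted p 0.00191) and Rbbp7 by -0.26 (SE 0.07, adjusted p 0.0116), against 27.3% of all genes (13.1% higher, 14.2% lower). In a fit of the 4 libraries compared 5 members were called, with Ezh1 and Rbbp4 higher and Phf19 lower beside these. Without any 1 of the 4 libraries Rbbp7 was not called in that step (0.0589 to 0.079). By DM 48h with PFI-3, Ezh1 had risen by 1.42 and Jarid2 by 1.34, while Phf19 was at -1.08, Ezh2 at -0.80, Suz12 at -0.73 and Eed at -0.72 on the log2 scale, each with an adjusted p of 0.000987 or less. Mtf2, at -0.17, was not called (adjusted p 0.115).

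PFI-3 was then compared with DMSO within each stage, to ask how the members respond to a ligand of the SWI/SNF ATPase bromodomains. In proliferating cells Ezh1 was higher with PFI-3 and Rbbp4 lower, 2 of 10 members against 11.6% of all genes tested (5.46% higher, 6.15% lower). Ezh1 was at 6.72 and 5.73 FPKM with PFI-3, above the 4.25 and 4.09 with DMSO. Its log2 change was 0.48 (SE 0.09, adjusted p 0.00845), which was lost when only the 4 GM libraries were fitted (adjusted p 0.31). Rbbp4 was at 73.39 and 76.36 with PFI-3 and 77.80 and 83.54 with DMSO. Its change of -0.21 (SE 0.06, adjusted p 0.0351) was lost in 13 of 21 alternative fits, over which the adjusted p ran from 0.0305 to 0.505. Rbbp7, at -0.18 (SE 0.07, adjusted p 0.0944), was called lower without library B of GM DMSO (0.0279) or of GM PFI-3 (0.0359). Ezh2 differed by -0.03 (SE 0.11, adjusted p 0.88), its PFI-3 values of 37.50 and 34.37 FPKM lying among those of DMSO.

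At DM 24h Ezh1 and Jarid2 were higher with PFI-3, 2 of 10 members against 23.6% of all genes (12.2% higher, 11.4% lower). Ezh1 was at 14.60 and 14.46 FPKM, above 9.78 and 10.26 with DMSO, and its change of 0.49 (SE 0.08, adjusted p 0.00141) held in every alternative fit, with adjusted p-values of 2.99e-11 to 0.0247. These PFI-3 values lay between those of DMSO cells at DM 24h and DM 48h. Jarid2 was at 7.77 and 7.42 FPKM against 5.94 and 6.04, a change of 0.29 (SE 0.08, adjusted p 0.0265) that was lost with DESeq2 (adjusted p 0.177) and without any 1 of the 4 DM 24h libraries (0.0869 to 0.155). Ezh2, at 22.73 and 23.92 FPKM against 27.98 and 23.95, differed by -0.20 (SE 0.11, adjusted p 0.223). Phf19 differed by -0.39 (SE 0.15, adjusted p 0.077) and was called without library A (0.0484) or B (0.0491) of GM PFI-3. When only the DM 24h libraries were fitted, 6 members were called, with Ezh2 (adjusted p 0.0126), Phf19 (0.00152), Rbbp4 and Rbbp7 lower.

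At DM 48h 3 of the members that had fallen during differentiation, Ezh2, Phf19 and Rbbp7, were higher with PFI-3 than with DMSO. Jarid2, which had risen, was lower. These were 4 of 10 members against 27.4% of all genes (13.4% higher, 14.0% lower). The median over the members was 0.17 and over all genes 0.0. This comparison and the stage comparison under DMSO share the 2 DM 48h DMSO libraries, so their values stand side by side and are not independent. Ezh2 was at 20.11 and 20.39 FPKM with PFI-3 and 13.56 and 13.20 with DMSO, with no overlap. Its log2 change was 0.51 (SE 0.12, adjusted p 0.00766), beside -1.35 for DM 48h against GM, and was lost without library B of DM 48h DMSO (adjusted p 0.0649).

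Phf19 showed the largest difference at DM 48h, 4.13 and 3.55 FPKM with PFI-3 against 2.50 and 1.88. The log2 change of 0.72 (SE 0.18, adjusted p 0.00922), beside -2.06 with stage, was lost without library A of DM 48h PFI-3 (0.0855) or library B of DM 48h DMSO (0.108). Rbbp7 was at 109.83 and 109.03 against 85.59 and 87.99, a change of 0.25 (SE 0.07, adjusted p 0.0154) that was lost without any 1 of the 4 DM 48h libraries (0.0682 to 0.111). Jarid2 was at 7.10 and 7.63 with PFI-3 and 8.68 and 7.79 with DMSO. Its change of -0.25 (SE 0.08, adjusted p 0.0414) was lost in 12 of 21 alternative fits, DESeq2 and limma on FPKM among them, with adjusted p-values of 0.00217 to 0.316.

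The remaining 6 members were not called at DM 48h. Ezh1 was at 16.56 and 16.07 FPKM with PFI-3 and 17.72 and 17.55 with DMSO, below it in both libraries, but its change of -0.20 (SE 0.08) had an adjusted p of 0.0841. Without any 1 of the 4 GM libraries it was called (0.0417 to 0.0483). When only the DM 48h libraries were fitted, Ezh1 was called lower (adjusted p 0.0088) and Suz12 (adjusted p 0.0211) and Aebp2 (adjusted p 0.0151) higher, 7 members in all. Eed differed by 0.20 (SE 0.16, adjusted p 0.391), Rbbp4 by -0.10 and Mtf2 by -0.02. The balance of calls over all genes depended on scaling: with limma on log2(FPKM + 1), 75.3%, 62.0% and 65.3% of the genes called in the 3 stages in turn were higher with PFI-3, against 47.0%, 51.7% and 48.9% in the main analysis. No member that was called changed direction under any scaling.

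**Figure D4:**
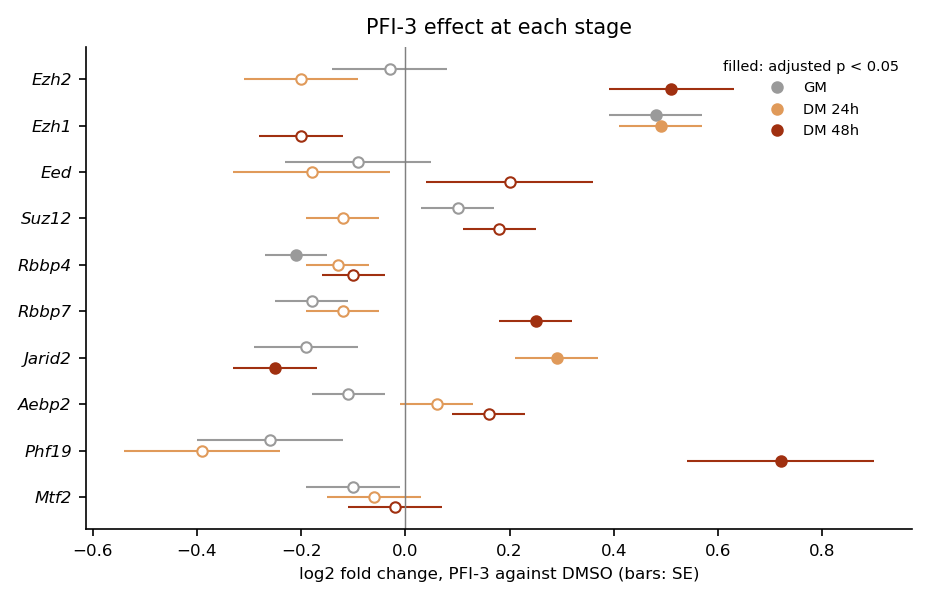
Log2 fold change of PFI-3 against DMSO (horizontal axis) for each PRC2 gene at each of the 3 stages, with bars of 1 SE and filled points at an adjusted p under 0.05. Ezh1 is at 0.48, 0.49 and -0.20 for GM, DM 24h and DM 48h in turn, while Ezh2 and Phf19 lie left of 0 before DM 48h and at 0.51 and 0.72 then.

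Whether the PFI-3 effect changed with stage was tested through interaction contrasts. Between GM and DM 24h no member's effect differed, against 3.37% of all genes (1.78% higher, 1.59% lower), by edgeR, DESeq2 or limma. At an unadjusted p under 0.05 edgeR had 2, Suz12 (-0.21) and Jarid2 (0.48, SE 0.13, adjusted p 0.0621), the second of which was called without library A of GM DMSO (0.0328). Between GM and DM 48h 4 of 10 differed, against 14.5% (8.25% higher, 6.29% lower): the effect on Phf19 was higher by 0.98 (SE 0.22, adjusted p 0.0123), on Ezh2 by 0.54 (SE 0.16, adjusted p 0.0437) and on Rbbp7 by 0.43 (SE 0.09, adjusted p 0.00925), and that on Ezh1 was lower (-0.68, SE 0.12, adjusted p 0.00337). Between DM 24h and DM 48h 5 of 10 differed, against 12.1% (7.12% higher, 4.97% lower). Phf19 (1.12, adjusted p 0.00787), Ezh2 (0.71, adjusted p 0.0154) and Rbbp7 (0.37, adjusted p 0.0233) were again on the higher side, and Ezh1 (-0.69, adjusted p 0.00211) and Jarid2 (-0.54, adjusted p 0.011) on the lower. The 2 interactions of Ezh1 were called in all alternative fits, with adjusted p-values up to 0.0204 and 0.0181. That of Ezh2 between GM and DM 48h was lost in 12 of 21.

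Markers of proliferation fell from GM to DM 48h under DMSO. So did Phf19, Ezh2, Eed, Suz12, Rbbp7, Aebp2 and Mtf2, but not Ezh1, Jarid2 and Rbbp4. All 15 of a list of S phase and mitotic genes fell from GM to DM 48h under DMSO, by -1.18 to -3.13 on the log2 scale, against 35.9% of all genes. By DM 24h under DMSO 12 had fallen and 1, Mki67 (0.5), had risen, against 30.0% and 30.6%. All 15 were higher with PFI-3 at DM 48h, by 0.46 to 1.46, against 13.4% of all genes. For PFI-3 in GM 0 of the 15 were called by edgeR, DESeq2 or limma, against 11.6% of all genes by edgeR. At an unadjusted p under 0.05 edgeR had 5 lower in GM. With PFI-3 at DM 24h 4 were lower, against 11.4%. Their summed level was 4730 to 4780 CPM in GM DMSO, 3630 to 3660 at DM 24h and 1180 to 1190 at DM 48h, against 2340 in both PFI-3 libraries of DM 48h. The replicative helicase gene Mcm5 went from 280 ± 0.579 CPM in GM DMSO to 32.1 ± 0.328 at DM 48h, and was at 88.7 ± 2.53 with PFI-3. Of 9 myoblast and myotube markers 6 were lower with PFI-3 at DM 48h, against 14.0% of all genes. The summed level of the 9 was 12900 CPM with DMSO and 9230 to 9580 with PFI-3. The part of the cell cycle or of differentiation in the values of the members was not tested.

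E2F proteins are known to drive Ezh2 and Eed, and pocket proteins restrain them. Of 11 E2F and pocket protein genes, 3 rose and 5 fell from GM to DM 48h under DMSO, where 37.2% of all genes rose and 35.9% fell. Rb1, which encodes the retinoblastoma repressor of E2F, rose from 34.4 ± 3.6 to 250 ± 3.29 CPM (log2 change 2.86, SE 0.08, adjusted p 1.41e-11). E2f1, an activator, fell from 70.7 ± 4.83 to 20.3 ± 0.892 CPM (-1.8, SE 0.09, adjusted p 2.39e-09), whereas E2f2, another activator, rose from 40.1 ± 9.22 to 175 ± 0.717 CPM (2.12, SE 0.17, adjusted p 1.83e-07). With PFI-3 at DM 48h 4 of the 11 were higher and 1 lower, against 13.4% and 14.0% of all genes: E2f1 was at 43.7 ± 3.81 CPM (1.10, SE 0.09, adjusted p 4.37e-06), while Rb1 was at 207 ± 6.7 (-0.27, SE 0.07, adjusted p 0.0121). In GM 3 of the 11 were higher with PFI-3 and 2 lower, against 5.46% and 6.15%. At DM 24h 0 were higher and 4 lower, against 12.2% and 11.4%. E2f1 was at 88.2 ± 0.787 CPM with PFI-3 in GM, against 70.7 ± 4.83, and at 53.7 ± 1.65 at DM 24h, against 53.8 ± 0.865. Rb1 was at 38.0 ± 0.662 in GM, against 34.4 ± 3.6, and at 102 ± 0.596 at DM 24h, against 165 ± 4.69. Ezh2 was called at neither stage in the main analysis. The part of these genes in the levels of the members was not tested.

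Other genes of the PRC2 pathway were also counted, against the same shares of all genes. Of 5 further accessory or inhibitory genes, 4 were listed and Ezhip was not. From GM to DM 48h with DMSO Epop, which links PRC2 to elongin, fell from 28.2 ± 6.03 to 5.91 ± 0.198 CPM (-2.25, SE 0.18, adjusted p 2.04e-07), and Phf1, another Polycomb-like gene, rose from 21.6 ± 4.35 to 40.1 ± 2.54 (0.89, SE 0.12, adjusted p 2.23e-05). Lcor rose by 0.79 and Lcorl, at -0.25, was not called. For PFI-3 0 of the 4 were called by edgeR or DESeq2 at any stage, against 11.6%, 23.6% and 27.4% of all genes by edgeR in the 3 stages in turn. So few genes cannot set a count of 0 apart from those shares. At an unadjusted p under 0.05 edgeR had 2 higher in GM and 2 at DM 48h, and limma on log2(FPKM + 1) called 2 higher at DM 48h. Of 5 listed genes for enzymes that remove the PRC2 or PRC1 mark, or their cofactors, 3 rose and 1 fell by DM 48h with DMSO. Of all genes 37.2% rose and 35.9% fell. The demethylase gene Kdm6b rose most, from 78.8 ± 7.7 to 238 ± 20.2 CPM (1.59, SE 0.10, adjusted p 1.85e-08), and was lower with PFI-3 at DM 48h, at 163 ± 0.217 CPM (-0.54, SE 0.09, adjusted p 0.00108). The mean of Kdm6b was also lower with PFI-3 in GM, at 58.7 ± 6.67 CPM against 78.8 ± 7.7. At DM 24h it was at 155 ± 8.2 against 167 ± 9.09. Its paralog Kdm6a rose by 0.66 from GM to DM 48h with DMSO.

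The genes whose profiles over the 12 libraries were most like those of the 2 catalytic genes were found by the root mean square difference of centred log2(CPM + 1) values among 9396 genes whose mean reached 10 CPM. Nearest to Ezh2 were Fam216a (0.0868), Smchd1 (0.0907), Crybg3 (0.0913), Mre11a (0.0951) and Nup155 (0.0969). Smchd1, a chromatin protein of the inactive X chromosome, was at 156 CPM in GM DMSO, 66.6 at DM 48h DMSO and 96.3 at DM 48h PFI-3. Nearest to Ezh1 were Bckdha (0.102), Trpm4 (0.118), Appl2 (0.13), Dact3 (0.134) and Thra (0.141), the last encoding a thyroid hormone receptor. Among the members, Eed ranked 229, Suz12 327, Aebp2 987, Phf19 1043, Rbbp7 1218, Mtf2 3210 and Rbbp4 5677 of 9396 in likeness to Ezh2. Jarid2 ranked 8504 and Ezh1 itself 8731 in likeness to Ezh2. In likeness to Ezh1, Jarid2 ranked 95 and the next member, Rbbp4, 3042. These ranks describe the 12 libraries, which differ in stage, treatment and depth, and the part of each in the ranks was not tested.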

How the data were processed

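The submitters' processing notes name HISAT, StringTie, Cufflinks, Bowtie, RSEM and DESeq2 and the build mm10, and which tool did which step is not given in the sources used here. The authors deposited 1 table per library with an expected count, an FPKM value and a transcript length per gene, per the file headers. Expected counts are estimated and need not be whole, though all 120 of the members' values were. The authors' FPKM values are scaled by length and library size. The weighting behind the deposited length is not given in the sources used here. A gene missing from a table was taken as 0.

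Expected counts were rounded and fitted with edgeR 4.0.16 (R 4.3.3, TMM scaling, filterByExpr, quasi-likelihood test) in 1 model of 6 groups over 12 libraries, so that all groups share 1 estimate of the spread. P-values were adjusted by Benjamini-Hochberg over 12545 genes. CPM are TMM-scaled. Alternatives were DESeq2's size factors, DESeq2 1.42.0, no filter, a mean of at least 10 counts, limma 3.58.1 on log2(FPKM + 1) or log2(FPKM + 0.1), only the libraries compared, the letter as a block, and leaving out each library. Fitting only the libraries compared with the block was chosen after seeing the data. The edgeR step was tested on simulated data. The Ezh2 to Ezh1 ratio used exact permutation tests (Python 3.11.15, pandas 2.3.3, scipy 1.17.1).

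The members and gene lists were chosen with earlier results of these data known. Besides the members and cell markers, the genes named were, per list and direction, among the 3 called genes of largest change (mean of at least 1 CPM) for DM 48h against GM under DMSO or for PFI-3 at DM 48h, and the 5 nearest profiles of Ezh2 and of Ezh1. Lcorl was named to complete its list. Promoter windows and gene positions are from RefSeq on GRCm38, exon overlaps from GENCODE on that build.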

Additional observations from a re-analysis of the deposited data

Results flagged for a closer look

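For 5 members the effect of PFI-3 differed between stages in an interaction contrast of edgeR's quasi-likelihood test, in 9 contrasts. The effect on Ezh1 was lower at DM 48h than in GM by 0.68 on the log2 scale (-0.68, adjusted p 0.00337) and lower than at DM 24h by 0.69 (-0.69, adjusted p 0.00211). The effect on Ezh2 at DM 48h was higher than in GM by 0.54 (adjusted p 0.0437) and higher than at DM 24h by 0.71 (adjusted p 0.0154). The effect on Phf19 at DM 48h was higher than in GM by 0.98 (adjusted p 0.0123) and higher than at DM 24h by 1.12 (adjusted p 0.00787). The effect on Rbbp7 at DM 48h was higher than in GM by 0.43 (adjusted p 0.00925) and higher than at DM 24h by 0.37 (adjusted p 0.0233). The effect on Jarid2 at DM 48h was lower than at DM 24h (-0.54, adjusted p 0.011).

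Single libraries bear on these. The contrast of Phf19 with GM was lost without library A of DM 48h PFI-3 (adjusted p 0.0685) or B of DM 48h DMSO (0.0744), and its contrast with DM 24h without B of DM 48h DMSO (0.0524). The contrast of Ezh2 with DM 24h was lost without any 1 of the 4 DM 48h libraries or either library A of DM 24h (0.0559 to 0.081). Its contrast with GM was lost without any 1 of 10 libraries, the other 2 being library A of GM PFI-3 and library B of GM DMSO. The contrast of Rbbp7 with DM 24h was lost without any 1 of the 8 libraries compared (0.0734 to 0.105), and that with GM without library A of DM 48h DMSO (0.051). The contrast of Jarid2 was lost with DESeq2 (0.0503), with limma on log2(FPKM + 0.1) (0.0719) and without library A of any 1 of the 4 DM groups (0.0536 to 0.0598).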

How the results depend on the processing

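Over the 10 members and 12 contrasts, 1012 values under other settings kept their side of the threshold, 35 gained a call and 33 lost it. With 1 library left out 1329 kept it, 27 gained and 84 lost. None that was called changed sign. Fitting only the libraries compared moved the counts of members called from 2 to 0 for PFI-3 in GM (1 with the block added), 2 to 6 at DM 24h (6 with the block), 4 to 7 at DM 48h (8 with the block), 2 to 5 for DM 48h against DM 24h under PFI-3 (5 with the block), and 4 to 2 for the interaction of PFI-3 with DM 48h against GM (2 with the block). The GM count was 1 under limma with either pseudocount, and the DM 24h count was 1 under DESeq2 and under limma with pseudocount 0.1. Leaving out 1 library gave 1 to 4 members for PFI-3 in GM, 1 to 3 at DM 24h, 1 to 6 at DM 48h and 1 to 4 for DM 48h against DM 24h under PFI-3. For the interactions it gave 0 to 1 (DM 24h minus GM), 2 to 5 (DM 48h minus GM) and 2 to 6 (DM 48h minus DM 24h).

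For libraries of the same letter, deviations from the group mean were correlated across genes between DMSO and PFI-3. The correlation was 0.515 in GM but 0.0312 and 0.057 at DM 24h and DM 48h. Libraries of like letter thus shared part of their deviation in GM alone, and the letters were not treated as pairing the libraries. With the replicate block over all 12 libraries the members called numbered 2, 2 and 3 for PFI-3 in the 3 stages in turn, the call of Jarid2 at DM 48h being lost (adjusted p 0.0504), 6 and 10 for DM 24h and DM 48h against GM under DMSO, and 0, 4 and 5 for the interactions. The log2 ratio of Ezh2 to Ezh1 between DM 48h and GM was -2.82 with the block, -2.6 with log2(FPKM + 1) and -2.88 to -2.76 with 1 library left out. The balance of calls over all genes for the effect at DM 24h minus GM went from 52.7% higher to 32.9% with limma on log2(FPKM + 1). The lowest count of a member in any library was 88 (Phf19), so no value of the members rests on a count near 0. Groups of 2 libraries leave a lone library when 1 is left out, and it is then assumed to vary like the other groups.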

Other observations

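PRC1, the ubiquitin ligase complex that works beside PRC2, changed in both directions with stage. Of 24 PRC1 genes tested, 6 rose and 10 fell from GM to DM 48h under DMSO, where 37.2% of all genes rose and 35.9% fell, with a median log2 change of -0.08 against 0.03 over all genes. The polyhomeotic gene Phc2 (-1.20, SE 0.08, adjusted p 5.03e-08), L3mbtl2 (-1.11) and Cbx2 (-1.03) fell, while Cbx7 rose by 0.83, Phc3 by 0.77 and Auts2 by 0.58. With PFI-3 at DM 48h 7 of the 24 were higher and 0 lower by edgeR (0 by DESeq2 and limma, and 3 at an unadjusted p under 0.05), against 13.4% and 14.0% of all genes, among them L3mbtl2 (0.49), Rybp (0.49) and Cbx6 (0.46, from 193 ± 1.15 to 265 ± 19.6 CPM). For other complexes that hold RBBP4 or RBBP7, 5 of 16 genes rose and 9 fell with stage, against the same 37.2% and 35.9%. Those of the chromatin assembly factor CAF-1 fell most, Chaf1b from 75.5 ± 0.239 to 9.91 ± 0.939 CPM (-2.93, SE 0.08, adjusted p 2.12e-11) and Chaf1a from 148 ± 11.7 to 23.0 ± 1.0 (-2.69). With PFI-3 at DM 48h Chaf1b was at 31.2 ± 0.018 CPM (1.65, SE 0.09, adjusted p 2.96e-07) and Chaf1a at 55.7 ± 6.05 (1.28). The histone deacetylase gene Hdac1 fell by 1.08 with stage and was 0.35 higher with PFI-3 at DM 48h. Chd3 rose by 0.68 with stage and was lower with PFI-3 at DM 48h (-0.48). Its mean was also lower with PFI-3 in GM, at 218 ± 28.5 CPM against 353 ± 41.1, and at DM 24h, at 390 ± 2.38 against 469 ± 23.2.

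A list of 45 loci known as PRC2 targets, mostly Hox genes, held 32 listed and 24 tested genes. The muscle genes Ckm, Myog, Myh4 and Pax7 were among them. Histone marks were not measured here. Under DMSO 14 rose and 3 fell from GM to DM 48h (11 and 3 by DESeq2), against 37.2% and 35.9% of all genes. The largest rises were those of Ckm (13.34), Myog (12.7) and Myh4 (10.75) on the log2 scale. In GM DMSO their means were 0.0761, 0.263 and 0 CPM, so the size of these rises rests on values near 0. Genes this low in GM pass the low-count filter only if they are higher in a DM group. Their rise is therefore not independent of the filter and adds no support to the count. Listed Hox genes that stayed low, such as Hoxb4 and Hoxd11, were not tested. Ckm and Myog were also counted among the myoblast and myotube markers above. Pax7, a muscle stem cell factor, was at 43.2 ± 4.73 CPM in GM and 218 ± 13.3 at DM 48h with DMSO, and at 133 ± 4.07 with PFI-3 (-0.71, SE 0.11, adjusted p 0.000393). With PFI-3 2 of the 24 were higher and 0 lower in GM (0 and 0 by DESeq2, 3 and 3 at an unadjusted p under 0.05), against 5.46% and 6.15% of all genes. By DM 24h 7 were higher and 4 lower, against 12.2% and 11.4%, and by DM 48h 1 was higher and 5 lower, against 13.4% and 14.0%. Hoxa9 was higher with PFI-3 (0.33, SE 0.09, adjusted p 0.0198). Hoxa11 fell with stage (-0.77), as did Hoxc11 (-0.5) and Hoxa9 (-0.39).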
